A study of Mus musculus with 7 samples.

Results

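The 10 genes described here, Pecam1, Cdh5, Kdr, Flt1, Emcn, Tek, Tie1, Esam, Eng and Vwf, are genes by which vascular endothelial cells are recognized. They were chosen by symbol, through the GENCODE mouse annotation, from the 43346 genes in the files, and each matched 1 Ensembl identifier. The samples were tibial growth plates from 7 male mice aged 21 d, all F1 hybrids of C57BL/6J (B6) and CAST/EiJ (CAST), an inbred strain of wild origin. No mouse received a treatment. The mice are numbered 1, 2, 3, 4, 5, 7 and 8, and there was 1 library of total RNA, depleted of ribosomal RNA, from each. The comparison the design allowed was that between the B6 and the CAST copy of a gene inside the same cells, and each mouse therefore gave a value for both alleles. Each of the 10 genes had counts for both alleles in all 7 mice, so all 10 entered every test.

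Growth cartilage has no blood vessels. At its lower border, capillaries from the metaphysis enter the cartilage that hypertrophic chondrocytes leave behind, and bone forms along them. The endothelial cells of these capillaries respond to VEGF-A, which hypertrophic chondrocytes secrete, through the receptors KDR (VEGFR2) and FLT1 (VEGFR1). Angiopoietins act on TEK (TIE2), whose relative TIE1 modifies that signal. The other genes encode adhesion molecules of the endothelial junction (Pecam1, Cdh5, Esam), a surface sialomucin of capillary and venous endothelium (Emcn), a coreceptor for TGF-β and BMP ligands (Eng) and von Willebrand factor (Vwf), which endothelial cells store in Weibel-Palade bodies. Some of them are also expressed outside the endothelium: Vwf and Pecam1 in megakaryocytes and platelets, and Pecam1 and Eng in monocytes and macrophages.

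The tissue label names chondrocytes, and the vessels came along with the dissected plates. Markers of other cells were also present: every gene of the lists fixed for pericytes, megakaryocytes, macrophages, chondrocytes, osteoblasts, osteoclasts, red cells, neutrophils, B cells and muscle had counts in all 7 mice. The files do not say where in the plate a transcript was, so the position of these endothelial cells at the vascular front was not measured. The libraries held from 14098019 (mouse 7) to 37849667 (mouse 5) counts. The submitters' labels give an average number of reads well below these totals, so what 1 count stands for in reads is uncertain. The noncoding RNAs Rn7s1, Rn7s2 and Rn7sk took from 15.5% of them in mouse 1 to 23.8% in mouse 8, so that less of that library was left for other genes. Levels are given as CPM, the count of a gene relative to the total of its library, on a scale on which every library sums to 1000000.

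RefSeq promoters on GRCm38.p6 were at hand for 6 of the genes, Kdr, Flt1, Emcn, Tek, Tie1 and Eng. Pecam1, Cdh5, Esam and Vwf had no entry. Shown here is what lies before the start of Tie1, the gene for which the B6 allele exceeded the CAST allele in the test below, of Emcn, which passed the test only when mice were paired, and of Tek, the relative of Tie1, which did not pass. The window searched was the 250 bases before the RefSeq start. GENCODE begins Tie1 further out, so that 212 bases of the Tie1 window lie inside the GENCODE gene, as do 11 for Emcn, and only the bases before the GENCODE start are printed. All are the B6 reference, 5′ to 3′ along the gene's strand. Capitals mark the hexamer AGGAAG, or CTTCCT on the other strand, which holds the core that ETS factors bind. Other hexamers with that core, such as cggaag in Tie1 and attcct in Tek, were neither searched nor marked. They are chr4:118490062-118490099 on the minus strand for Tie1, chr3:137340828-137341066 on the plus strand for Emcn and chr4:94739039-94739288 on the plus strand for Tek.
Tie1: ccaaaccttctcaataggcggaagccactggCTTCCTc
Emcn: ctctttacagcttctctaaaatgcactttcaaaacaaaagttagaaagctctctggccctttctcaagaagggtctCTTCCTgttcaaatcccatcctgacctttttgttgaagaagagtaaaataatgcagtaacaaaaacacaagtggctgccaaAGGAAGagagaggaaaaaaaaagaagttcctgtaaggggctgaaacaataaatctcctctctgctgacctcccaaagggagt
Tek: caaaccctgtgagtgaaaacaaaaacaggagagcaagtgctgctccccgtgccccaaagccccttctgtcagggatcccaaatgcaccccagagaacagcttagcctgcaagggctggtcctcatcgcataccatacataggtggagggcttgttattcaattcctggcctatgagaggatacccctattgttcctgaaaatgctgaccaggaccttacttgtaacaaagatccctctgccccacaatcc
Over the whole windows, the hexamer was in 4 of the 6 promoters, with 1 match in Tie1, 2 each in Emcn, Flt1 and Eng, and none in Tek or Kdr. Of all 32851 promoters in the table, 29.5% held it. The TATA box letters TATAAA, searched on both strands, were in 1 of the 6, Flt1, against 12.4% of all promoters. The GATA core letters AGATAA, likewise searched, were in 0 of the 6, against 9.99%. The motifs were counted separately, so overlapping matches would count for each. These matches describe letters in a window and say nothing of binding.

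The 10 genes covered a wide range of levels. Per kilobase of annotated exon, Eng was highest, at 15.7 ± 1.95 CPM per kb (mean ± SD, n = 7), followed by Cdh5 at 15.5 ± 3.13. Tie1 (12.0 ± 1.01), Pecam1 (11.6 ± 2.08) and Esam (9.72 ± 0.99) made up the middle of the order on this scale. Vwf (6.17 ± 0.89) and the VEGF receptor Kdr (5.23 ± 0.68) came next, and Tek (3.29 ± 0.35), Flt1 (2.45 ± 0.41) and Emcn (1.78 ± 0.43) were lowest. Eng exceeded 89.3% of 15833 protein-coding genes in CPM per kb, and Emcn 42.0%. The neighbours Eng and Cdh5, and Tie1 and Pecam1, kept their order in only 4 of 7 mice, and Pecam1 and Esam in 6. The other neighbours kept it in all 7 mice, but the values of the 7 mice did not overlap only between Esam and Vwf and between Kdr and Tek. The order of genes depended on the length used: with the longest transcript in place of all exons, Pecam1 came first, at 21.0 CPM per kb, and Flt1 stood above Tek. The exons of Eng overlap those of Fpgs on the opposite strand. The libraries came from a stranded kit, but whether reads were counted by strand is not given in the sources used here. The total of Eng was a whole number in 7 of 7 mice. Whether reads of Fpgs entered it was not tested, so the place of Eng stays uncertain.

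**Figure D1:**
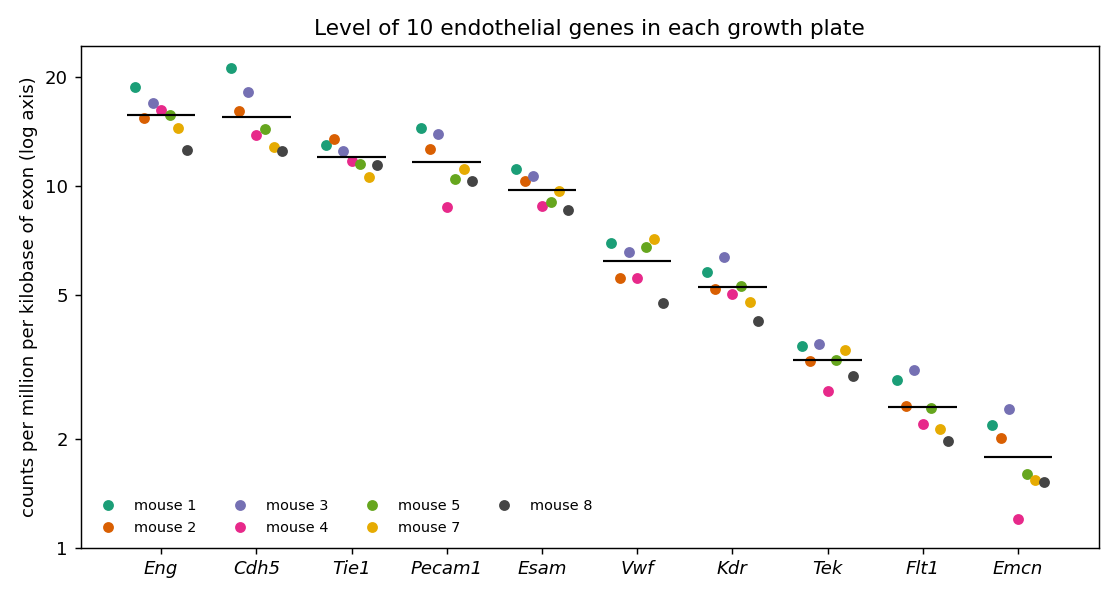
Level of the 10 endothelial genes (CPM per kilobase of merged exon, log axis) in the 7 growth plates, 1 point a mouse, with a horizontal line at the mean. The genes run from Eng at a mean of 15.7 to Emcn at 1.78, and mouse 8 lies under the mean of every gene.

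Within a gene, the 7 mice differed by a smaller amount than the genes did. Tie1 had a lowest level of 52.0 CPM in mouse 7, a median of 57.6 and a highest level of 66.3 in mouse 2, and a coefficient of variation of 8.42%, the smallest of the 10 genes on this scale. With TMM-scaled library sizes Tek (15.5 ± 0.842 CPM) and Esam (27.8 ± 2.22 CPM) varied less for their level than Tie1 (59.1 ± 6.24 CPM). Emcn varied the most on the scale of the library total, from 6.47 CPM in mouse 4 through a median of 8.61 to 13.0 in mouse 3, a coefficient of variation of 24.3%. The VEGF receptors had the same extremes: Kdr ran from 38.2 CPM in mouse 8 to 57.4 in mouse 3 with a median of 46.6, and Flt1 from 26.7 to 41.8 in the same mice with a median of 32.8. Tek, the angiopoietin receptor, ran from 12.8 CPM in mouse 4 to 17.2 in mouse 3, with a median of 15.6. Of the junction genes, Cdh5 (VE-cadherin) ranged from 52.4 CPM in mouse 8 to 88.5 in mouse 1 around a median of 60.2. Pecam1 ranged from 54.2 in mouse 4 to 89.9 in mouse 1 around a median of 69.0, and Esam from 24.6 in mouse 8 to 31.9 in mouse 1 around a median of 27.7. Eng had the same lowest and highest mouse as Cdh5 and Esam, at 50.6 and 75.9 CPM, with a median of 63.2. Vwf differed from the others in its highest mouse: it was lowest in mouse 8 at 76.3 CPM, like most of them, but highest in mouse 7 at 114.5, with a median of 105.3.

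On the scale of the library total, the genes tended to be high and low in the same mice, though Vwf was highest in mouse 7 and Tie1 in mouse 2. All 10 were above their own mean (on the log2 scale) in mice 1 and 3, 0 of 10 in mouse 8, 1 in mouse 4 and 2 in mouse 7. Mice 2 and 5 lay between, with 6 and 5 of 10 above. What share of all genes lay above or below their mean in the same mice was not counted. With TMM-scaled library sizes Kdr, Flt1, Tek, Eng and Vwf were lowest in mouse 8. Pecam1 and Emcn were then lowest in mouse 4, Cdh5 and Tie1 in mouse 7 and Esam in mouse 5. Highest were Pecam1, Kdr, Flt1, Emcn and Tek in mouse 3, and Tie1 and Esam in mouse 2. Cdh5 was highest in mouse 1, Eng in mouse 4 and Vwf in mouse 7. The summed level of the 10 genes was 581, 499, 557, 444, 484, 472 and 411 CPM in mice 1, 2, 3, 4, 5, 7 and 8, a mean of 492.6 ± 60.1 (SD). The highest mouse exceeded the lowest 1.41-fold. With Rn7s1, Rn7s2 and Rn7sk left out of the library totals, that fold was 1.28. It was also 1.28 with TMM-scaled library sizes, where mouse 3 rather than mouse 1 was highest. In bulk tissue, fewer endothelial cells and less RNA per endothelial cell cannot be told apart.

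The lists of other endothelial genes and of pericyte and smooth muscle genes were also lowest in mouse 8, as was the chondrocyte list. So were the lists for Notch, for venous and sinusoidal vessels and for Weibel-Palade bodies. The last of these lists holds Vwf itself, which on average gave 99.1 of its 191.5 CPM. The VEGF and angiopoietin, receptor partner and antiangiogenic lists were lowest in mouse 4, and the arterial and lymphatic lists in mouse 7. The summed level of 28 further endothelial genes ran from 752 CPM in mouse 8 to 960 in mouse 3, and that of 10 pericyte and smooth muscle genes from 991 to 1486 in the same mice. The lists for blood cells had other extremes. The 10 megakaryocyte and platelet genes ran from 108 CPM in mouse 4 to 221 in mouse 7, the mouse in which Vwf was highest. The 8 macrophage and monocyte genes also peaked in mouse 7, from 787 CPM in mouse 3 to 1206, as did the 6 B-lineage genes, from 158 in mouse 3 to 367. The 7 erythroid genes (8359 CPM in mouse 3 to 20289 in mouse 5) and the 7 neutrophil genes (1474 in mouse 2 to 3178 in mouse 5) peaked in mouse 5. Platelet genes were therefore present in every library beside Vwf and Pecam1, and their part in the levels of these genes was not tested. Chondrocyte genes (52443 CPM in mouse 8 to 88643 in mouse 4), osteoblast genes (35665 in mouse 7 to 65146 in mouse 2), osteoclast genes (4164 in mouse 4 to 6049 in mouse 2) and muscle genes (3229 in mouse 4 to 6619 in mouse 1) made up the rest of the lists.

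**Figure D2:**
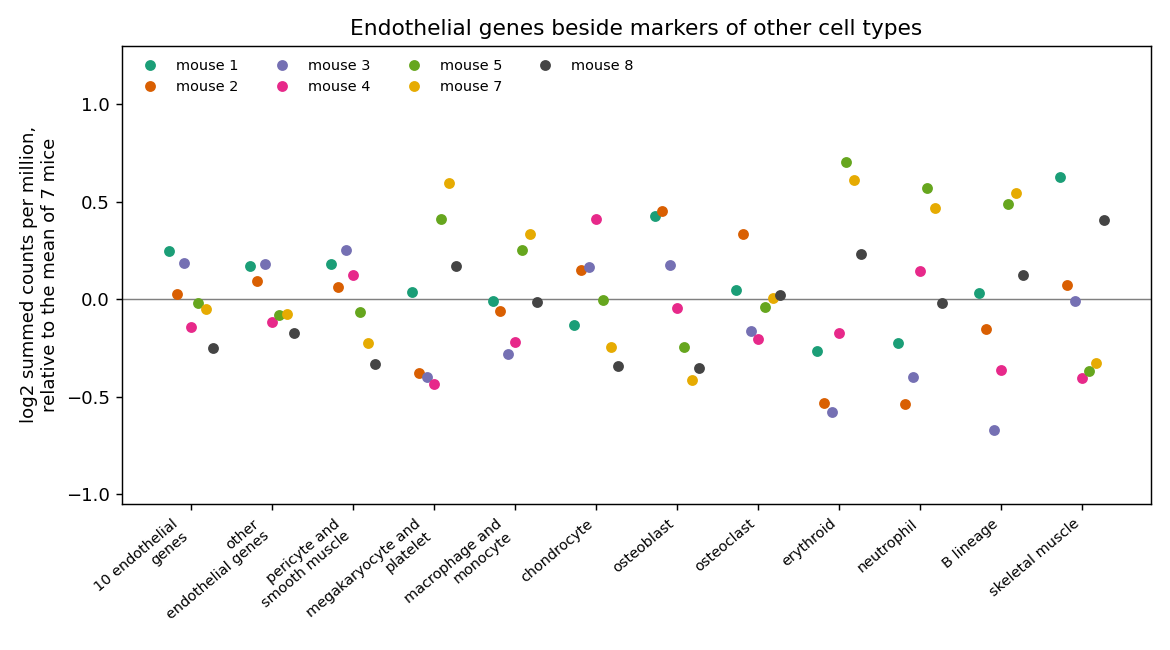
Summed CPM of each gene list in each mouse, as the log2 difference from the mean of the 7 mice, 1 point a mouse. The 10 endothelial genes, the other endothelial genes, the pericyte genes and the chondrocyte genes were lowest in mouse 8. The megakaryocyte, macrophage and B-lineage lists were highest in mouse 7.

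Among 9573 other protein-coding genes, each with 100 counts or more in all mice, those whose pattern over the 7 mice lay nearest to the mean pattern of the 10 genes were Rcan3, Zc3h7b, Jcad, Rassf8 and Wipi1. Their root mean square distance was 0.0322, 0.0325, 0.0361, 0.0395 and 0.0396 on the log2 scale, against a median of 0.198 over these genes. Jcad encodes a protein of endothelial cell junctions, and Rcan3 belongs to the family of calcineurin regulators. No function is given here for Zc3h7b, Rassf8 and Wipi1. The 10 endothelial genes themselves lay further from their mean pattern, from 0.0602 (Esam) to 0.186 (Emcn). The named genes were picked as the nearest, so this difference cannot decide whether closeness to the pattern marks endothelial genes. The distances of the 10 genes, which themselves make up the pattern, all lay under the median of 0.198. Their rank among the 9573 genes is not given here, and which cells express the named genes was not tested. With only 7 mice, each measured once, and a shared library total, these distances are descriptions.

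The main question of the design was whether the B6 and CAST alleles gave different amounts of transcript. Of the 10 endothelial genes, only Tie1 passed at a false discovery rate (FDR) under 0.20, with the B6 allele higher. Over all 21805 genes tested, 32.6% passed in either direction, 17.2% with B6 higher and 15.4% with CAST higher. These shares include X-linked genes, whereas the 10 genes are autosomal. In a fit of autosomal genes alone 2 of the 10, Tie1 and Vwf, passed, beside 30.5% of all genes in that fit. A list of 10 genes is too short to tell such counts from the share of all genes. The median log2 fold change of the 10 genes (CAST over B6) was -0.03, beside 0.01 over all genes tested.

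Tie1 (ENSMUSG00000033191, GRCm38 chromosome 4, 118471191 to 118490061, minus strand) had 877 ± 284 counts on the B6 allele and 696 ± 225 on the CAST allele (mean ± SD, n = 7), an SD taken over libraries of unequal depth. On the B6 allele it had 1131, 1147, 914, 659, 1138, 422 and 730 counts in mice 1, 2, 3, 4, 5, 7 and 8. On the CAST allele it had 821, 825, 774, 551, 991, 311 and 599 counts in the same mice. The B6 allele was higher in all 7 mice, while the range of counts over mice overlapped between the alleles. Where a read holds no difference between the strains, EMASE divides it between the alleles, and how many reads told them apart is not known. The log2 ratio of CAST to B6 lay between -0.48 in mouse 2 and -0.20 in mouse 5, with a mean of -0.34 ± 0.118 (SD). The fitted log2 fold change was -0.32 (SE 0.0963, FDR = 0.00644, edgeR likelihood-ratio test), that is, 1.25-fold more transcript from the B6 allele. A permutation test that flips the sign of the 7 log2 ratios in every possible way (exact, two-sided) gave P = 0.0156, the smallest value that 7 mice allow, and 22.9% of all genes tested reached it. Over the other settings tried the FDR of Tie1 ranged from 1.8e-10 to 0.0317 and it passed in each.

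**Figure D3:**
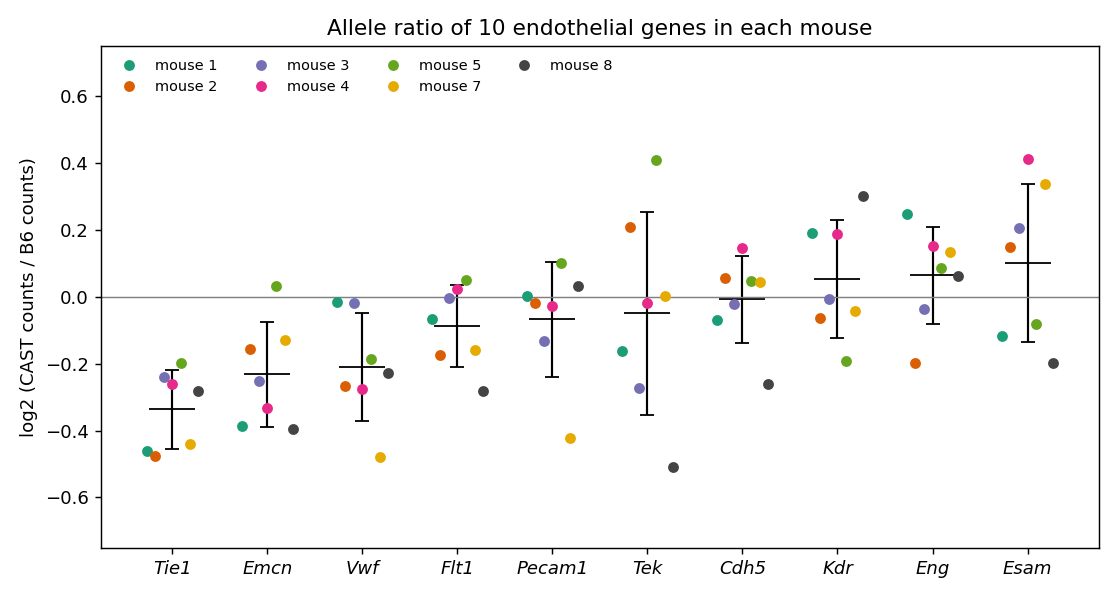
Log2 ratio of CAST to B6 counts of the 10 endothelial genes, 1 point a mouse, with the mean and SD over the 7 mice; 0 is equal counts. All 7 points of Tie1 and of Vwf lie below 0, as do 6 of 7 for Emcn, and the points of the other genes lie on both sides.

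Vwf and Emcn leaned to the B6 allele as well, but their calls depended on the fit. Vwf had 1392 ± 457 B6 counts and 1231 ± 475 CAST counts, with log2 ratios from -0.48 in mouse 7 through a median of -0.23 to -0.02 in mouse 1, all below 0. Its log2 fold change was -0.19 (SE 0.103, FDR = 0.207), just short of a call. Emcn had 140.0 ± 57.6 B6 counts and 119.8 ± 50.7 CAST counts, with log2 ratios from -0.40 in mouse 8 to 0.03 in mouse 5 and a median of -0.25. Its log2 fold change was -0.21 (SE 0.16, FDR = 0.426), and the exact sign-flip permutation test gave P = 0.0156 for Vwf and P = 0.0312 for Emcn. When the mouse entered the fit as a block, so that the alleles of each animal were paired, Vwf (FDR = 0.00858) and Emcn (FDR = 0.0279) passed beside Tie1 (FDR = 1.8e-10), all 3 with B6 higher. In that fit 42.7% of all genes, X-linked ones included, passed, and 3 of 10 genes cannot be told from that share. Leaving out mouse 7 moved the log2 fold change of Vwf to -0.14 (FDR = 0.463) without the block, and leaving out mouse 1 or mouse 3 brought it below the threshold (FDR = 0.167 and 0.157).

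The estimated totals of Vwf differed from a whole number by 0.001 counts or more in 7 of 7 mice, those of Pecam1 in 6, and of Tie1 and Flt1 in 1 each, which occurs where EMASE divides reads between genes. In the megakaryocyte and platelet list, 3 of 10 genes passed, all with B6 higher, beside 32.6% of all genes, and the median log2 fold change was -0.33, beside 0.01 over all genes tested. They were Pf4 (platelet factor 4; log2 fold change -0.52, FDR = 0.0361), Itga2b (-0.42, FDR = 0.104) and Gp1bb (-0.36, FDR = 0.0846), the last named after its value was seen. Ppbp, among the most abundant of the list per length, lay the other way: its log2 fold change was 0.18 (FDR = 0.67), with CAST higher in 6 of 7 mice, and it passed with the block (FDR = 0.000447). In the macrophage and monocyte list 4 of 8 passed, Cd68 and Cd14 with CAST higher and Adgre1 and C1qa with B6 higher, and the median log2 fold change was -0.0022. Lyz2, its most abundant gene per length, was at 0.09 (FDR = 0.813) and passed only with the block. What part megakaryocyte transcripts had in the ratio of Vwf was not tested.

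The remaining 7 genes did not pass, with or without the block. Of the VEGF receptors, Kdr had a log2 fold change of 0.07 (SE 0.107, FDR = 0.797), with single mice from -0.19 in mouse 5 to 0.30 in mouse 8. Flt1 had -0.06 (SE 0.114, FDR = 0.864), with single mice from -0.28 in mouse 8 to 0.05 in mouse 5. Mouse 8 was thus at opposite ends for these receptors. Tek, at -0.02 (SE 0.112, FDR = 1), had the widest spread, from -0.51 in mouse 8 to 0.41 in mouse 5, and it is among the least counted. Among the junction genes, Pecam1 was at -0.04 (SE 0.116, FDR = 0.927), with all mice between -0.13 and 0.10 except mouse 7 at -0.42. Esam was at 0.12 (SE 0.101, FDR = 0.493), from -0.20 in mouse 8 to 0.41 in mouse 4. Cdh5 was at 0.01 (SE 0.126, FDR = 1), a sign that turned (-0.0083) when both alleles of a mouse were given 1 library size. Eng was at 0.09 (SE 0.105, FDR = 0.693), higher on CAST in 5 of 7 mice. Over the 10 genes together, the CAST allele held 46.5% of the counts in mouse 7 at the lowest and 49.8% in mouse 4 at the highest. This sum weighs genes by their counts. With all mice pooled, CAST held 44.2% for Tie1, 46.1% for Emcn and 46.9% for Vwf. It held 48.8% for Flt1, 49.4% for Pecam1, 49.7% for Tek and 49.8% for Cdh5. For Kdr it held 50.6%, and for Esam and Eng 51.1% each. The CAST share of whole libraries is not given here.

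Genes that act with or beside these receptors were taken from lists fixed for vessels. In these lists, 88 genes outside the 10 were tested and 29 passed, close to the 32.6% of all genes tested. Of the 29, 17 had CAST higher and 12 had B6 higher, and 45 of the 88 passed with the block. With 1 library size per mouse the split turned to 12 with CAST higher and 15 with B6 higher. Over all genes tested, the same change took 3363 with CAST higher and 3748 with B6 higher to 2883 and 3721. The 29 included all 5 X-linked genes, Apln, Vegfd, Bmx, Tnmd and F8. Males inherit their X chromosome from the mother alone, and in these genes the CAST allele held at most 3.18% of the counts. Of the 83 autosomal genes, 24 (28.9%) passed. In a fit of autosomal genes alone 21 of the 83 passed, beside 30.5% of all genes in that fit. The block raised the counts of most lists, as it did for all genes (42.7%): with it, 5 of 14 receptor partners, 4 of 10 Notch genes, 3 of 6 venous and sinusoidal genes, 5 of 8 Weibel-Palade body and haemostasis genes, 7 of 10 pericyte genes, 7 of 10 megakaryocyte genes and 8 of 8 macrophage genes passed.

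Among the VEGF and angiopoietin ligands and coreceptors, 5 of 11 passed, 2 with CAST higher and 3, X-linked Vegfd among them, with B6 higher, beside 32.6% of all genes tested. Vegfa, the main ligand of KDR and FLT1, had 602 ± 199 B6 counts and 515 ± 179 CAST counts, with B6 higher in 7 of 7 mice. Its log2 fold change of -0.22 did not pass (SE 0.127, FDR = 0.242), and it did with the block (FDR = 0.000683). Vegfc, a ligand of the lymphatic receptor, was higher on B6 (log2 fold change -0.76, FDR = 0.000398), as was the coreceptor Nrp2 (-0.37, FDR = 0.00968). Angpt4, a ligand of TEK, was higher on CAST, with 324 ± 134 CAST counts against 184 ± 83.1 B6 counts (0.81, FDR = 1.58e-05). Flt4, the receptor for VEGF-C, was also higher on CAST (0.27, FDR = 0.0950), and X-linked Vegfd had nearly all of its counts on B6.

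Of 14 partners of the TIE, VE-cadherin and endoglin receptors, 2 passed, beside 32.6% of all genes tested. Both had CAST higher: Smad1, which carries the BMP signal to the nucleus (log2 fold change 0.23, FDR = 0.0985), and its target Id1 (0.40, FDR = 0.115). Ctnnb1 (β-catenin, which binds the tail of VE-cadherin, 0.02, FDR = 0.997) and Id3 (0.06, FDR = 0.911), the most abundant of this list per length, did not pass. In the Notch list 2 of 10 passed, beside the same share of all genes. Both had CAST higher: Hey1, a Notch target (0.53, FDR = 0.00742), and the endothelial receptor Notch4 (0.27, FDR = 0.194). Notch1 was at -0.05 (FDR = 0.873).

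Of 28 other endothelial genes, 10 passed, close to the 32.6% of all genes tested. They were 4 with CAST higher and 6, X-linked Apln among them, with B6 higher. Clec14a, an endothelial C-type lectin-like protein, had the largest fold among the 83 autosomal genes: 459 ± 137 counts on CAST and 204 ± 66.9 on B6, a 2.29-fold excess (FDR = 1.43e-30). Mmrn2, which encodes an extracellular ligand of CLEC14A and CD93, was higher on CAST too (log2 fold change 0.44, FDR = 2.59e-05), and Cd93 was higher on B6 (-0.26, FDR = 0.00891). Plvap, the protein of fenestral diaphragms and the most abundant of the list per length, was higher on CAST (0.28, FDR = 0.0402). The apelin receptor Aplnr was at 0.14 (FDR = 0.527, and 0.0491 with the block), and its X-linked ligand Apln was nearly all B6.

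**Figure D4:**
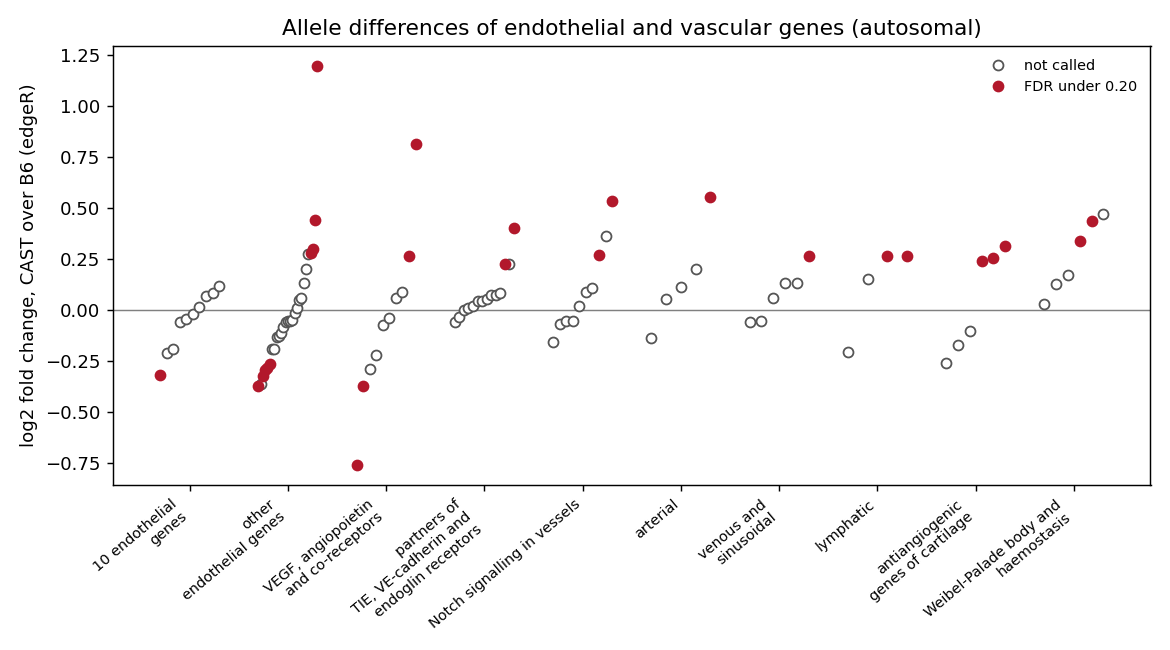
Fitted log2 fold change (CAST over B6) of the autosomal genes in each vascular list, 1 point a gene; filled points passed at an FDR under 0.20. Tie1, at -0.32, is the only filled point among the 10 endothelial genes, and Clec14a, the highest filled point, is among the other endothelial genes.

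Lists for vessel types were small, and their counts stand beside 32.6% of all genes tested. Of 6 arterial genes, 2 passed: Gja4, a gap junction protein of arterial endothelium, with CAST higher (log2 fold change 0.55, FDR = 0.00275), and X-linked Bmx. Unc5b was at 0.05 (FDR = 0.938, and 0.158 with the block). Of 6 venous and sinusoidal genes 1 passed, Flt4, and Ephb4 was at 0.13 (FDR = 0.372, and 0.0794 with the block). Of 4 lymphatic genes 2 passed, Flt4 and Pdpn (0.27, FDR = 0.136), both with CAST higher, and Pdpn is also expressed by osteocytes and stromal cells.

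Cartilage holds inhibitors of vessel growth, and 4 of 7 of these genes passed, beside 32.6% of all genes tested. With the block all 7 passed, beside 42.7% of all genes. Timp3 (log2 fold change 0.24, FDR = 0.0310), Thbs1 (0.26, FDR = 0.0574) and Thbs2 (0.32, FDR = 0.181) were higher on CAST in 7 of 7 mice, and X-linked Tnmd was on B6. The most abundant per length, Serpinf1 (pigment epithelium-derived factor; -0.17, FDR = 0.304) and Cnmd (chondromodulin; -0.10, FDR = 0.657), did not pass, though both were higher on B6 in 7 of 7 mice and passed with the block. Of 8 Weibel-Palade body and haemostasis genes, Vwf among them, 3 passed: Selp (P-selectin; 0.44, FDR = 0.0296) and Plat (0.34, FDR = 0.196) with CAST higher and X-linked F8, of which Plat was named after its value was seen. Thbd was at 0.13 (FDR = 0.381, and 0.133 with the block). Of 10 pericyte genes 2 passed, Rgs5 with B6 higher (-1.01, with 1079 B6 and 533 CAST counts on average) and Mcam with CAST higher (0.48, FDR = 0.000251). Cspg4 (0.08, FDR = 0.88) and Pdgfrb (0.08, FDR = 0.695), the most abundant per length, passed with the block only (FDR = 1.81e-05 and 0.00669).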

How the data were processed

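Growth plate RNA of 7 F1 mice was sequenced as paired reads. The authors aligned reads to a joint B6 and CAST transcriptome (mm10) with Bowtie, allowing 3 mismatches, and quantified alleles with EMASE; they deposited estimated counts per gene for B6, CAST and their total. Levels are CPM of the total. Of 43346 identifiers, 98.0% matched GENCODE M21.

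Allele counts, rounded, of the 21805 genes with a count above 0 in every mouse were tested with edgeR 4.0.16 (R 4.3.3; TMM, glmLRT, Benjamini-Hochberg) at an FDR under 0.20; glmFit, glmLRT and the filter follow the study's methods, while rounding, TMM and the lack of pairing were chosen here. SEs were derived from the likelihood-ratio statistic. Sign-flip permutation tests used log2 ratios with a pseudocount of 0.5. The alternatives included DESeq2 1.42.0, and the code was tested on simulated data. Both alleles of a number come from the same animal, so the block pairs them; over 15111 genes their deviations correlated by 0.0594 on average (lowest -0.0546), and 2 of 7 mice correlated best with their own number. Libraries differed beyond sampling noise in all 21 pairs of mice.

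The genes and lists were chosen with earlier results of these data known. Named beside the 10 genes were, from each list, the 2 most abundant per length and up to 4 with the lowest FDR among those that passed in 1 direction in all 7 mice; of the lists for cells outside the vessels, only megakaryocyte and macrophage genes are named. The 5 genes most alike in pattern were also named.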

Additional observations from a re-analysis of the deposited data

How the results depend on the processing

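Tie1 passed under every alternative tried. The count of endothelial genes that passed, 1 of 10, was 3 with the mouse as a replicate block, by the likelihood-ratio and by the quasi-likelihood test, and 2 (Tie1 and Vwf) with DESeq2, with at least 10 counts in every mouse, with autosomal genes only, and, in an alternative chosen after seeing the data, with counts under 1e-06 taken as 0. Leaving out each mouse in turn gave 1 to 2, with 2 without mouse 1 and without mouse 3. For the 88 other vascular genes, 29 became 45 with the block and 18 at an FDR under 0.05, and 25 to 28 without 1 mouse. Over all genes tested, 32.6% became 42.7% with the block and 22.1% at an FDR under 0.05. The block with the quasi-likelihood test gave 37.6%, and DESeq2 30.6%. Of the genes in each fit, 37.1% passed with at least 10 counts in every mouse and 30.5% with autosomal genes only. With counts under 1e-06 taken as 0 the share was 34.7%, and without 1 mouse it was 29.2% to 31.6%. Without the block, the log2 fold change of Cdh5 turned to -0.0083 with 1 library size per mouse. Leaving out 1 mouse gave -0.068 to 0.0069 for Pecam1, -0.015 to 0.050 for Cdh5 and -0.10 to 0.053 for Tek, and mean log2 ratios of -0.033 to 0.034 for Cdh5 and -0.13 to 0.027 for Tek. Emcn missed P under 0.05 in the sign-flip test without any mouse but mouse 5, at P = 0.0625 (exact permutation test). The summed level of 492.6 CPM was 614.3 without Rn7s1, Rn7s2 and Rn7sk, 663.2 against the total of protein-coding genes, and 477.7 to 506.1 without 1 mouse. The cause of these shifts was not tested. Emcn, with the fewest counts, had the largest SE (0.16). In the sign-flip test 3 of the 10 genes had P under 0.05, and 2 to 3 without 1 mouse. The share of all genes was taken only at the smallest P that 7 mice allow. It was 22.9%, and Tie1 and Vwf, but not Emcn, reached that P. The block changed no other call among the 10 genes.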
